A study of Mus musculus with 6 samples.

Results

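A set of 10 genes that hold back MAP kinase signalling was followed in sorted CD8 T cells of the mouse spleen: the dual specificity phosphatases Dusp1, Dusp2, Dusp4, Dusp5, Dusp6 and Dusp10, the Sprouty genes Spry1 and Spry2, and the Sprouty-related genes Spred1 and Spred2. They were taken by symbol, and all 10 were found among the 17744 genes of the deposited table. The study holds 6 RNA-seq libraries, 3 labelled control (genotype wt) and 3 labelled fus irradiation, called ultrasound 1, 2 and 3 here; the series title gives fus as focused ultrasound directed at the spleen. The cells of both groups were sorted for CD45, CD3 and CD8a, and the labels give no strain, age, sex, dose or interval after treatment. Nothing in the labels says that the libraries came from separate animals, so p-values measure the spread between these libraries only.

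T cell receptor signals reach the nucleus partly through the Ras-ERK cascade, in which Raf, MEK and ERK kinases activate each other in turn, and through the parallel p38 and JNK kinases. Dual specificity phosphatases remove the activating phosphates from threonine and tyrosine of these kinases, whereas Sprouty and Spred proteins act upstream, at the level of Ras and Raf. Many of these inhibitors are transcribed in response to the pathway they restrain, which makes them feedback genes and, in T cells, readouts of recent stimulation.

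The promoters of 4 of the phosphatase genes are shown because these genes had the lowest log2 changes among those with an entry. That order is on the log2(FPKM + 1) scale of the main test. Each sequence is the 250 bases before the RefSeq start on GRCm38.p6, read 5′ to 3′ on the gene's strand. Capitals mark the cyclic AMP response element (CRE, TGACGTCA), its core (TGACG or the reverse complement, which the CRE also holds) and the CArG box of the serum response element.
Dusp1: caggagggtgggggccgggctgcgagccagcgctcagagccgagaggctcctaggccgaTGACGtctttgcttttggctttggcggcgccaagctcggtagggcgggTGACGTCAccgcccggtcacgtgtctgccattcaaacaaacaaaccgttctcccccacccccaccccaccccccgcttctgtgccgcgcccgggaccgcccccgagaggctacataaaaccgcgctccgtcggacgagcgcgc
Dusp2: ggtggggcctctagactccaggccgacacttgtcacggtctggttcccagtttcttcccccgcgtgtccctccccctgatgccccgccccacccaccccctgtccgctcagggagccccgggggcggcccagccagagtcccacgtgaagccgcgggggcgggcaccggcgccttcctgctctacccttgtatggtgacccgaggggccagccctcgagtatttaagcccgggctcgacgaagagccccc
Dusp5: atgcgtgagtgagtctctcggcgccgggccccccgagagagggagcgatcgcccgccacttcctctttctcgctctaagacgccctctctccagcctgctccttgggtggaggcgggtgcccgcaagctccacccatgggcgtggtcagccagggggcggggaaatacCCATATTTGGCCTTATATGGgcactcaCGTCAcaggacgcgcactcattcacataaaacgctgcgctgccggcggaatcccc
Dusp10: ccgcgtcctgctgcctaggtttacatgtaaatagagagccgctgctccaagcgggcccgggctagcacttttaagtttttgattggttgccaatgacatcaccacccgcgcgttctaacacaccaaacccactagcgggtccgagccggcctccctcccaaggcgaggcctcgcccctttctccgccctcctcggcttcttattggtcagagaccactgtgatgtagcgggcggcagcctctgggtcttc
These windows lie at chr17:26508473-26508722 on the minus strand for Dusp1, chr2:127335909-127336158 on the plus strand for Dusp2, chr19:53528895-53529144 on the plus strand for Dusp5 and chr1:184034131-184034380 on the plus strand for Dusp10. RefSeq entries were matched for 9 of the 10 genes, not for Dusp4. On both strands, the full CRE was found in the Dusp1 window alone of the 9, 143 bases before the start, and in 1.55% of 32851 windows of the same length over all genes. The CRE core occurred in Dusp1, Dusp5 and Spred2, against 17.8% of all windows. Dusp5 held a pair of adjoining CArG boxes, 82 and 72 bases before its start, and 1.47% of all windows held at least 1. An NF-kB-like site (3 G, any 5 bases, 2 C) was in 9 of 9 and in 45.8% of all windows, and an NFAT core (GGAAAA) in Spry2 and Spred2 and in 20.4%. The AP-1 site (TGANTCA) and the TATA box letters (TATAAA) were in 0 of the 9, against 6.75% and 12.4%. The 9 windows were rich in G and C, at 56.0 to 70.8%, above 61.3 to 91.7% of all windows. The shares over all windows were not matched for this, so they are no measure of enrichment or lack of a motif. Such matches describe letters and were not tested for binding.

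Levels are given as FPKM, fragments scaled to gene length and library size by the authors. In the controls Dusp1 had the highest deposited FPKM, at 422 ± 68.1 FPKM (SD, n = 3), followed by Dusp2 at 337 ± 28.0 and Dusp5 at 123 ± 28.0 FPKM, which placed these 3 above 97.7% or more of all genes in the table. Dusp6 followed at 28.6 ± 3.29 FPKM. Dusp4 and Dusp10, at 14.6 ± 2.31 and 13.99 ± 1.39 FPKM, overlapped each other and could not be ordered. Spry1 lay at 7.87 ± 1.39 and Spred1 at 2.35 ± 0.456 FPKM. Spry2 and Spred2, at 1.04 ± 0.0645 and 0.982 ± 0.0395 FPKM, also overlapped each other. Lengths implied by the recovered reads bear on this order: 37940 bases for Spred2 and 8387 for Dusp10, 8.21 and 2.76 times the joined GENCODE exons. For Dusp1 and Dusp2 they were 0.587 and 0.808 times the joined exons. On exon lengths the control means were 248 FPKM for Dusp1 and 272 for Dusp2, which turns the order of the top pair. That turn depends on the annotation used for Dusp1. Its GENCODE entry reaches position 26562128, against 26508472 in RefSeq, and the 3311 joined bases exceed the whole RefSeq span of 2882. On exon lengths Dusp10, at 38.6, also stood above Dusp6, at 29.4 FPKM. A plain ratio of FPKM between libraries of 1 gene does not contain the gene length. The log2(FPKM + 1) changes and the FPKM minimum for the test do depend on it.

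Each library held between 35024080 and 38113103 recovered reads. The labelled cell type was checked against 10 T cell markers, among them Cd3e and Cd8a, of which 0 were called and whose summed level was 2887 to 3053 FPKM in the controls and 2519, 3360 and 3098 FPKM in ultrasound 1, 2 and 3. In ultrasound 1 each of the 10 T cell markers lay below every control, where 23.1% of all genes tested did. In every ultrasound library 1 of the 10, Cd3d, lay below all controls. Among markers of other cells, those of macrophages, monocytes and neutrophils differed with the groups. In the sums of the neutrophil, B cell and dendritic cell markers, ultrasound 1 stood apart from ultrasound 2 and 3. The 12 macrophage and monocyte markers summed to 682 to 1419 FPKM in the controls and 2810, 3001 and 4726 FPKM in ultrasound 1, 2 and 3, with 8 of the 12 called higher by limma and 10 of the 12 above all controls in every ultrasound library. The 9 neutrophil markers summed to 188 to 576 FPKM in the controls and to 2317, 648 and 680.2 FPKM in ultrasound 1, 2 and 3, with 3 of the 9 called higher by limma and 8 of the 9 above all controls in every ultrasound library. Over all genes tested 6.55% were called higher and 25.9% lay above all controls in every ultrasound library. The neutrophil markers were split among the ultrasound libraries. S100a8, S100a9, Retnlg, Ltf, Camp and Ngp were highest in ultrasound 1, whereas Csf3r, Cxcr2 and Mmp9 were lowest there. B cell markers, 9 in the table, summed to 216 to 329 FPKM in the controls and 160.03, 852 and 739 FPKM in ultrasound 1, 2 and 3. The 6 dendritic cell markers summed to 17.5 to 37.0 FPKM in the controls and 21.7, 63.1 and 57.5 FPKM in ultrasound 1, 2 and 3, and 6 erythroid markers to 5.80 FPKM or less in any library. Of the 8 B cell, 2 dendritic cell and 2 erythroid markers tested, 0 were called by limma. No marker of any of the lists was at 0 in any library. Dusp and Sprouty genes are also transcribed in myeloid and B cells, and in bulk RNA fewer cells of a type and less RNA per cell cannot be told apart; the part of these markers in the results was not tested. The T cell markers had a median log2 change of -0.10, from -0.22 for Cd3d to 0.31 for Cd3e.

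In ultrasound libraries 4 phosphatase transcripts, Dusp2, Dusp4, Dusp5 and Dusp10, were lower by limma at an adjusted p under 0.05 over all genes. Over all 10655 genes tested 1.56% were called lower. Of the 9 genes of the set with enough signal for the test, 0 were called higher, against 6.55% of all genes. For 8 of the 10 genes each of the 3 ultrasound libraries lay below each control, or 7 of the 9 tested, where 8.96% of all genes tested did so. The exceptions were Spry2 and Spred1. Of the 9, 7 were lower at an unadjusted limma p under 0.05, against 8.57% of all genes. For 0 of the 9 did every ultrasound library exceed every control, against 25.9% of all genes. Over the 9, the median log2 change was -1.09, against 0.09 over all genes tested. In the plot of FPKM by library the groups stand apart for all 6 phosphatases and for Spry1 and Spred2.

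**Figure D1:**
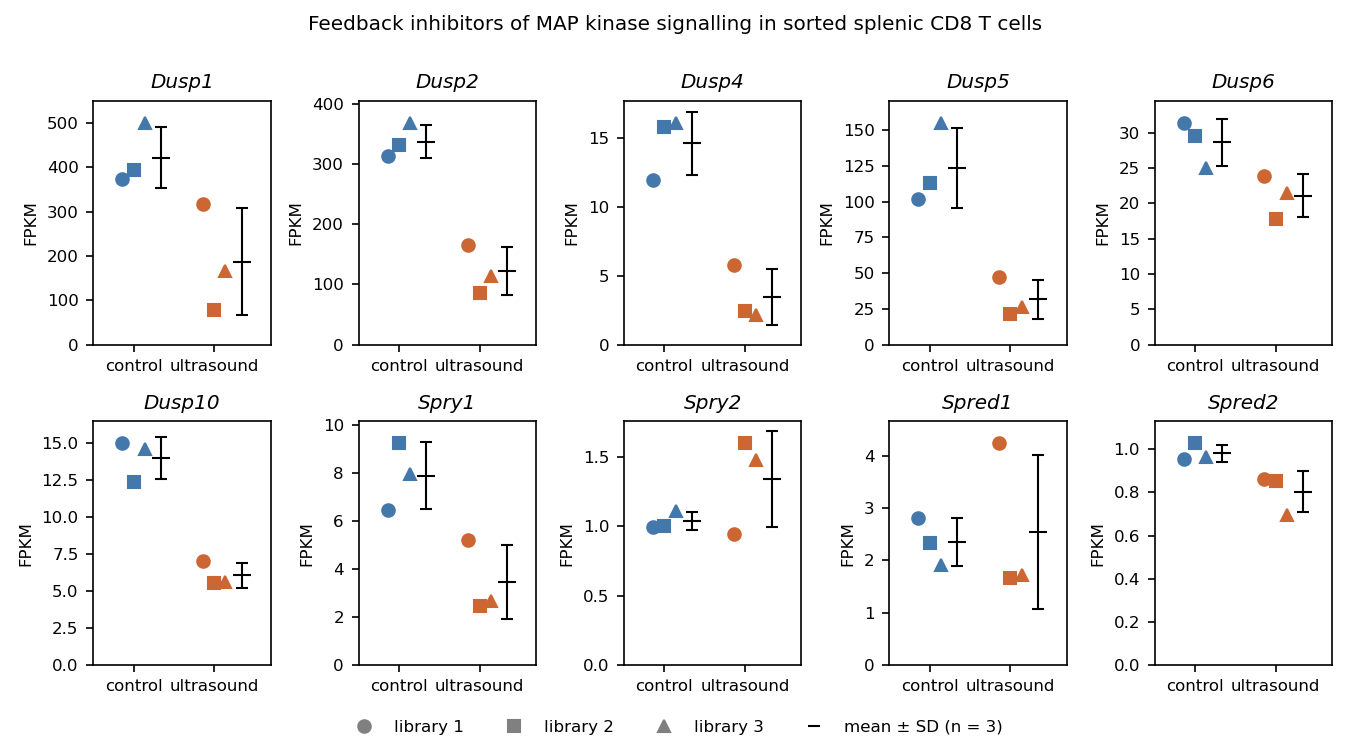
FPKM (linear axis from 0) of each of the 10 genes in the 3 control and 3 ultrasound libraries; symbols mark the library number within its group, with mean ± SD (n = 3) beside them. For Dusp5 the controls lie between 102 and 155 FPKM and the ultrasound libraries between 21.7 and 47.4, whereas the groups overlap for Spry2 and Spred1.

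The nuclear, inducible phosphatases had the lowest log2 changes of the set. Dusp5 (NCBI Gene 240672, chr19:53529145-53541809), which inactivates ERK and holds it in the nucleus, had 102, 113 and 155 FPKM in control 1, 2 and 3 and 47.4, 21.7 and 26.4 FPKM in ultrasound 1, 2 and 3. Every control exceeded every ultrasound library, the lowest control by 2.14-fold over the highest ultrasound library. It fell by 1.97 on the log2(FPKM + 1) scale (standard error 0.30, limma adjusted p 0.0304), rank 21 from the lowest among the 10655 genes tested. Dusp4 (NCBI Gene 319520, chr8:34807610-34819894), a nuclear phosphatase of ERK, p38 and JNK, had 11.98, 15.8 and 16.1 FPKM in the controls and 5.82, 2.45 and 2.17 FPKM in ultrasound 1, 2 and 3. Its mean was 4.21-fold lower in ultrasound libraries, the largest ratio of group means among the 10 genes. It fell by 1.88 (standard error 0.30, limma adjusted p 0.0304), with 201 to 1380 reads per library behind these values.

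Dusp2 (NCBI Gene 13537, chr2:127336159-127338377), a nuclear phosphatase known from activated lymphocytes, had 313, 331 and 368 FPKM in the controls and 165, 85.8 and 114 FPKM in ultrasound 1, 2 and 3. Its controls were among the closest of the set, with a coefficient of variation of 8.29%, and the ultrasound libraries did not reach them. It fell by 1.51 on the log2 scale (standard error 0.23, limma adjusted p 0.0304). Dusp1 (NCBI Gene 19252, chr17:26505591-26508472), an immediate early phosphatase of p38, JNK and ERK, had 373, 394 and 499.8 FPKM in the controls and 317, 77.9 and 167 FPKM in ultrasound 1, 2 and 3. Ultrasound 1 lay just under the lowest control, while ultrasound 2 held 18.4% of the control mean. Its ultrasound libraries spanned 4.07-fold, the widest span of the set, and the log2 change of -1.38 (95% interval -2.48 to -0.28) did not pass, with a limma adjusted p of 0.107. Without ultrasound 1 the Dusp1 change was -1.87 with a limma adjusted p of 0.00656, in a fit that called 19.7% of all genes lower.

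Dusp10 (NCBI Gene 63953, chr1:184034381-184075636), a phosphatase of p38 and JNK, had 14.97, 12.4 and 14.6 FPKM in the controls and 6.99, 5.51 and 5.63 FPKM in ultrasound 1, 2 and 3. The ultrasound libraries were close to each other, within 1.27-fold. It fell by 1.09 on the log2 scale (standard error 0.12), and its limma adjusted p of 0.0297 was the smallest of the set. Dusp6 (NCBI Gene 67603, chr10:99263231-99267489), the cytoplasmic ERK phosphatase, had 31.3, 29.5 and 24.9 FPKM in the controls and 23.9, 17.8 and 21.4 FPKM in ultrasound 1, 2 and 3. The groups were separated by a narrow gap, 1.05-fold between the lowest control and the highest ultrasound library. Its log2 change of -0.43 (95% interval -0.75 to -0.10) did not pass, with a limma adjusted p of 0.0965.

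Among the upstream inhibitors, Spry1 (NCBI Gene 24063, chr3:37639947-37644599), a Sprouty adaptor that limits receptor signalling to Ras and Raf, had 6.44, 9.22 and 7.95 FPKM in the controls and 5.21, 2.45 and 2.66 FPKM in ultrasound 1, 2 and 3. All ultrasound libraries lay below all controls. The log2 change of -1.04 (95% interval -1.62 to -0.46) missed the threshold with a limma adjusted p of 0.0503, and passed with 0.0462 in voom on recovered reads. Its relative Spry2 (NCBI Gene 24064, chr14:105891947-105896819) had 0.995, 1.003 and 1.11 FPKM in the controls and 0.947, 1.60 and 1.48 FPKM in ultrasound 1, 2 and 3. Ultrasound 1 was below the controls and the other 2 above them, and the log2 change was 0.19 (95% interval -0.14 to 0.52, limma adjusted p 0.355). These Spry2 values rest on 148 to 266 reads per library. Without ultrasound 1 the Spry2 change was 0.32 with a limma adjusted p of 0.0360, in a fit that called 34.1% of all genes higher.

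Spred1 and Spred2 encode membrane proteins that bring the Ras inactivator neurofibromin to the membrane. Spred1 (NCBI Gene 114715, chr2:117121071-117182279) had 2.81, 2.33 and 1.90 FPKM in the controls and 4.24, 1.66 and 1.73 FPKM in ultrasound 1, 2 and 3. Ultrasound 1 was above every control and ultrasound 2 and 3 were below every control. Its log2 change was 0.01 (95% interval -0.64 to 0.67, limma adjusted p 0.975), an interval that allows a rise or a fall of that size. Spred2 (NCBI Gene 114716, chr11:19924442-20024026) had 0.954, 1.03 and 0.964 FPKM in the controls and 0.864, 0.851 and 0.695 FPKM in ultrasound 1, 2 and 3. It stayed below the FPKM minimum for the test, although it had 1005 to 1365 reads per library. In voom on the 12614 genes with at least 10 reads in every library, an alternative chosen after the data were seen, its log2 change was -0.30 (95% interval -0.58 to -0.01, limma adjusted p 0.156). The authors' deposited table gives Spred2 a log2 change of -0.42 with q 0.0206.

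The ultrasound libraries were not alike. In each of ultrasound 1, 2 and 3, 9 of the 10 genes, or 8 of the 9 tested, were below all controls. Of all genes tested 23.1%, 29.6% and 34.5% were. The exception was Spred1 in ultrasound 1 and Spry2 in ultrasound 2 and 3. In ultrasound 1 Spry2 was below by few reads, 148 against 156, 156 and 174 in the controls. For 7 of the 9 tested genes ultrasound 1 lay below the controls and above both other ultrasound libraries, an order found for 6.98% of all genes tested. Among all genes tested, 955 lay below all controls in every ultrasound library, and 744 of those had this order. It is thus the usual order of such genes and not particular to the set. Relative to the control mean, Dusp1 stood at 75.1% in ultrasound 1 and at 18.4% and 39.5% in ultrasound 2 and 3. Dusp10 stood at 49.97%, 39.4% and 40.3% in the same libraries. Dusp5 stood at 38.5%, 17.6% and 21.4%. A fit in which ultrasound 2 and 3 carry their own term compares ultrasound 1 alone with the controls; in it, Dusp2, Dusp4 and Dusp10 passed at log2 changes of -1.02, -1.19 and -0.90 (limma adjusted p 0.0480, 0.0345 and 0.0307), where 0.441% of all genes were called lower. Dusp5, at -1.34, had 0.0662 there. The spread in that fit comes from the 3 controls and from ultrasound 2 against ultrasound 3. Ultrasound 1 is assumed to vary as they do, so these p-values carry no replicate check of that library.

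**Figure D2:**
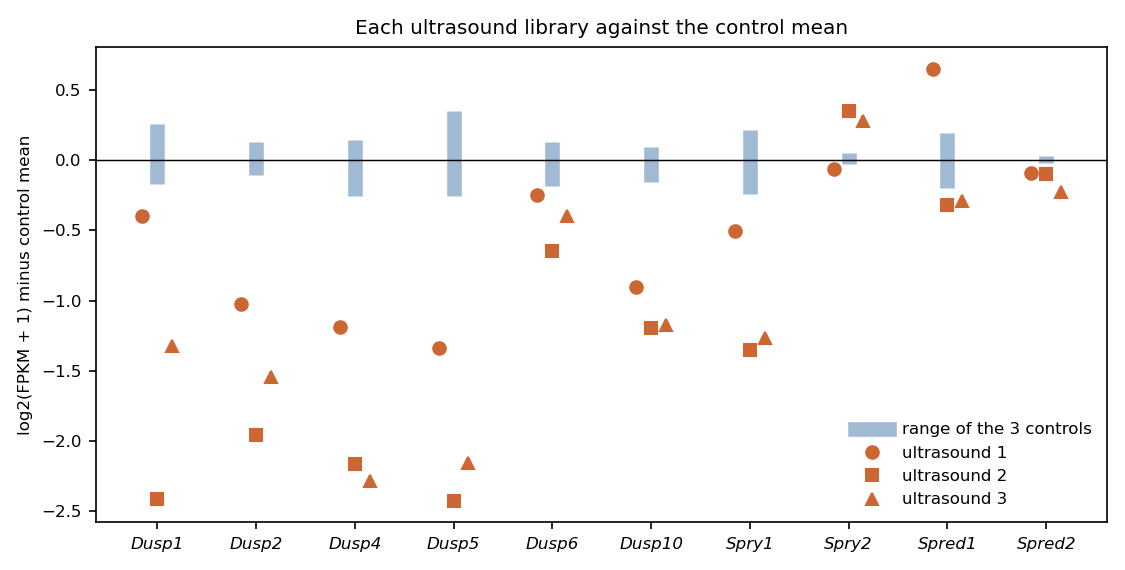
Difference of each ultrasound library from the control mean on the log2(FPKM + 1) scale for the 10 genes; bars span the 3 controls and symbols mark ultrasound 1, 2 and 3. Ultrasound 1 lies nearer the controls than ultrasound 2 and 3 for the 6 phosphatases and Spry1, and Spred1 is above the controls in ultrasound 1 alone, at 0.65.

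The count of 4 changed with the libraries used. Without ultrasound 1, 7 of the 9 genes were called lower and 1, Spry2, higher, but so were 19.7% and 34.1% of all genes. Without control 2, control 3, ultrasound 2 or ultrasound 3 the count by limma was 0, with 1962 to 2154 of all genes at an unadjusted p under 0.05, and without control 1 it was 4, against 0.61% of all genes. Median-of-ratios factors, upper-quartile factors and a pseudocount of 0.1 each left a count of 4, where 1.35%, 1.8% and 1.48% of all genes were called lower. The non-robust fit, voom on recovered reads and voom with at least 10 reads in every library gave 5, where 1.61%, 1.67% and 1.44% were called lower. In the authors' deposited table, q was under 0.05 and the level lower for 8 of the 10 genes, against 4.98% of its genes, from 1.38e-12 for Dusp10 to 0.0324 for Dusp1. With the replicate block 0 of the 9 passed by limma. None of the 16 alternatives changed the direction of any phosphatase or of Spry1.

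Other genes of the family were read from a list. Of 14 other dual specificity phosphatases 9 were tested, with a median log2 change of 0.51 against 0.09 over all genes tested. Of the 9, 2 rose and 0 fell, where 6.55% of all genes were called higher and 1.56% lower. Dusp3, a small phosphatase of ERK and JNK, had 1.29, 0.891 and 0.720 FPKM in the controls and 3.78, 2.80 and 4.37 FPKM in ultrasound 1, 2 and 3. It rose by 1.24 on the log2 scale (standard error 0.17, limma adjusted p 0.0304). Dusp7, a cytoplasmic ERK phosphatase akin to Dusp6, had 9.63, 9.68 and 11.5 FPKM in the controls and 14.8, 21.2 and 19.5 FPKM in ultrasound 1, 2 and 3. Its log2 change was 0.78 (limma adjusted p 0.0334), and 0.0507 with median-of-ratios size factors. That scaling gave 293 genes higher and 144 lower over all genes, against 698 and 166 in the main analysis. Of the macrophage and neutrophil markers given above 8 of 12 and 3 of 9 were also called higher, and their part in these results was not tested.

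The kinases and their partners were read from lists as well. In the Ras-ERK cascade 1 of 18 genes was called higher and 0 lower, against 6.55% and 1.56% of all genes tested, and the median log2 change was 0.01. Mapk3, which encodes an ERK kinase, rose from 25.0, 23.8 and 22.8 FPKM in the controls to 38.3, 47.8 and 56.1 FPKM in ultrasound 1, 2 and 3 (log2 change 0.95, limma adjusted p 0.0304). In the p38 and JNK cascade 2 of 15 were called higher and 0 lower. Mapkapk2 and Mapkapk3, kinases activated by p38, had log2 changes of 0.68 and 0.72 (limma adjusted p 0.0371 and 0.0304), and Mapkapk2 had 0.0679 with median-of-ratios size factors. Of 5 Ras GTPase-activating genes tested, 0 passed by limma, 2 had an unadjusted p under 0.05 and 0 passed by voom on recovered reads. Their smallest limma adjusted p were 0.109 for Rasa1 (log2 change -0.60) and 0.159 for Rasa3 (0.35).

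Of 17 transcripts known to be induced by ERK signalling 9 fell and 1 rose, where 1.56% of all genes tested were called lower and 6.55% higher. The median log2 change was -1.17, and 14 of the 17 were below all controls in every ultrasound library, against 8.96% of all genes tested. The list holds AP-1 and early growth response genes, transcription factors of the first wave after stimulation. Fosb had 278, 285 and 284 FPKM in the controls and 110.2, 22.9 and 52.4 FPKM in ultrasound 1, 2 and 3, the lowest log2 change of the list at -2.44 (limma adjusted p 0.0384). Egr1 had 156, 165 and 207 FPKM in the controls and 87.1, 33.8 and 51.3 FPKM in ultrasound 1, 2 and 3 (log2 change -1.69, limma adjusted p 0.0333). Jun, Junb, Fosl2, Egr3, Ier2, Ier5 and Btg2 fell too, by limma, with log2 changes from -1.77 for Fosl2 to -0.69 for Egr3; Fosl2 had an adjusted p of 0.0512 with median-of-ratios size factors. Etv5, an Ets factor known as an ERK target, went the other way, from 0.789, 0.993 and 0.795 FPKM to 1.66, 1.97 and 1.65 FPKM (log2 change 0.57, limma adjusted p 0.0335). Without control 2, control 3, ultrasound 2 or ultrasound 3, 0 of the 64 tested genes of these pathway lists passed. Without control 1 6 did, and without ultrasound 1 43 did, against 15 in the main analysis. Over all 10655 genes tested, 0 passed without control 2, control 3, ultrasound 2 or ultrasound 3. The count was 567 without control 1 and 5727 without ultrasound 1, against 864 in the main analysis.

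**Figure D3:**
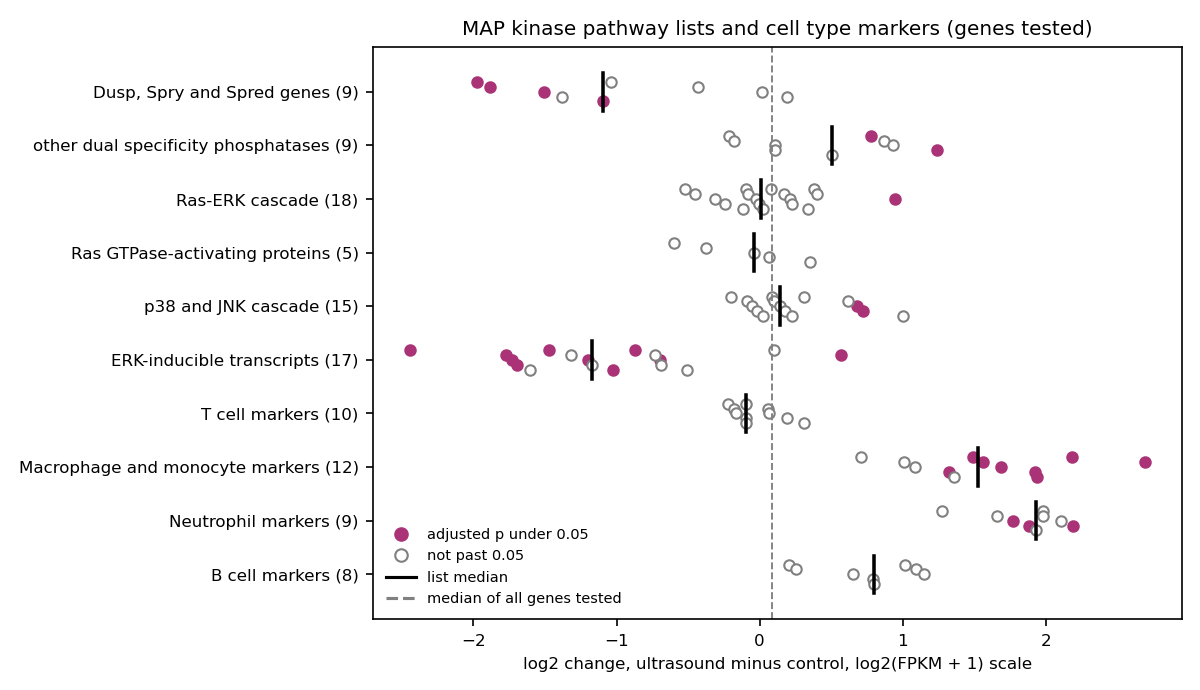
Log2 change (ultrasound minus control, log2(FPKM + 1) scale) of each tested gene in the 10 feedback genes, the pathway lists and 4 marker lists, with the number tested in brackets; filled points passed an adjusted p of 0.05, bars are list medians and the dashed line is the median of all genes. The feedback genes and the ERK-inducible transcripts have medians of -1.09 and -1.17, and the macrophage and neutrophil markers 1.53 and 1.93.

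Likeness in pattern was measured as Pearson's r of log2(FPKM + 1) over the 6 libraries, given as a description. For Dusp1 the genes with the highest r among 10654 were Nfil3 (0.992), Fos (0.991) and Zswim6 (0.990). Fos had 604, 692 and 769 FPKM in the controls and 448, 154 and 299.5 FPKM in ultrasound 1, 2 and 3, the same order of the ultrasound libraries as Dusp1. For Dusp6 they were Irf2bp2 (0.984), Fbxl17 (0.983) and Spr (0.979). For Spry1 they were Bcl11b (0.999), 4933407K13Rik (0.998) and Cdkn2aip (0.998). Bcl11b, a transcription factor of T cell identity, had 23.3, 26.7 and 25.2 FPKM in the controls and 20.8, 15.2 and 15.7 FPKM in ultrasound 1, 2 and 3.

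**Figure D4:**
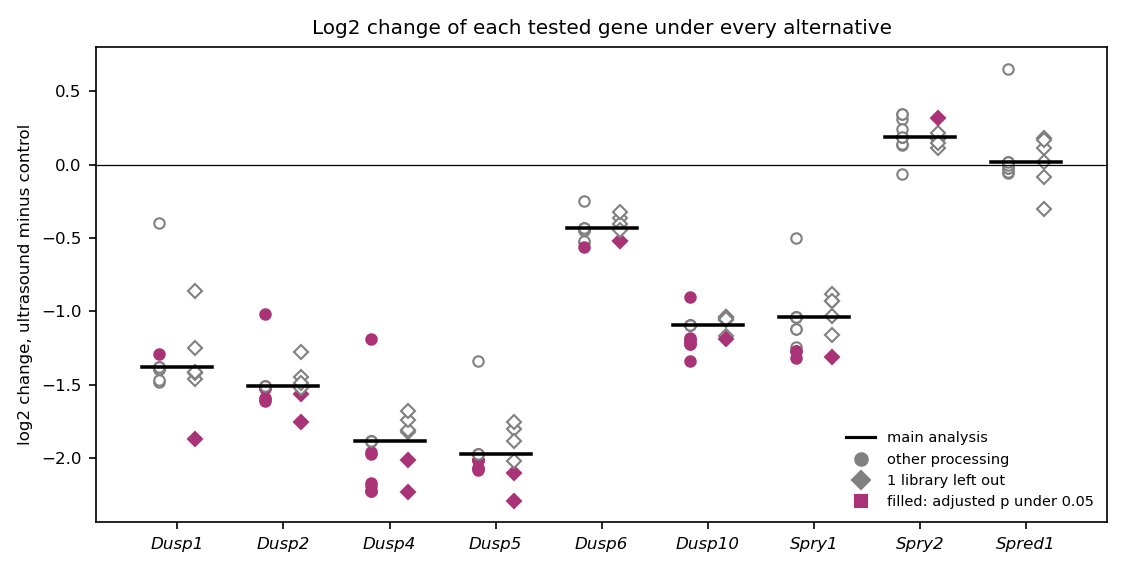
Log2 change (ultrasound minus control) of the 9 tested genes in the main analysis (bars), under other processing (circles) and with 1 library left out (diamonds); filled symbols passed an adjusted p of 0.05. The 6 phosphatases and Spry1 stay below 0 in every fit, Dusp1 between -1.87 and -0.40, while Spred1 lies on both sides of 0.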

How the data were processed

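RNA-seq of CD8 T cells sorted from spleen covered 3 control and 3 ultrasound libraries, grouped by sample title. Per the submitters' processing notes, HISAT2, HTSeq, DESeq2, R 3.2.0 and mm10 were used; the annotation is not given in the sources used here. Per the file headers, the authors' deposited table holds FPKM per library. The authors' group means of DESeq2 normalized counts form a signal column set, with a fold change (a ratio), its log2, and a p-value and q-value per gene, per the file headers. A second deposited table is a subset and was not used.

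The FPKM columns and group means obey one linear relation, from which whole reads were recovered: of 42773 values between 1 and 200 reads, 100% lay within 0.05 of a whole number. Libraries held 35024080 to 38113103 reads. Reads carry no molecular identifiers, so they give counting error only.

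The test was limma 3.58.1 (trend, robust; R 4.3.3) on log2(FPKM + 1), where a fold change understates that of a low gene. It took in the 10655 genes that reached 1 FPKM in 3 or more libraries. Tests were two-sided, adjusted over all of these genes by Benjamini-Hochberg, with a threshold of 0.05. On the recovered reads, limma with voom called 840 genes. In simulated data with 200 changed genes the fit recovered 99.0% at a dispersion of 0.01 over 10654 genes and 69.5% at 0.05 over 10658, with 18 and 12 false calls. Each simulation gave all genes the same dispersion, and no library stood apart from its group as ultrasound 1 did. These rates therefore need not hold for the real libraries.

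The genes and lists were chosen with earlier results of these data known. Named are the 10 genes, pathway genes with adjusted p under 0.05 (or the 2 smallest p of a list with none), and the 3 genes most like Dusp1, Dusp6 and Spry1. Deviations from the group means of same-numbered libraries had correlations of -0.04, 0.05 and 0.06. With 3 libraries per group these values show no pairing by replicate number but cannot exclude it. Alternatives covered scaling, pseudocount, filter, test, replicate block, a term for ultrasound 2 and 3, and each library left out. A further alternative, voom on genes with at least 10 reads in every library, was chosen after seeing the data. Gene coordinates and promoters are RefSeq's on GRCm38.p6, of which mm10 is the UCSC name; exon lengths are from GENCODE M21. Tables and figures used Python 3.11.15, numpy 2.4.6, pandas 2.3.3 and matplotlib 3.10.9.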

Additional observations from a re-analysis of the deposited data

How the results depend on the processing

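The 4 called genes of the set remained a count of 4 or 5 under median-of-ratios and upper-quartile factors, a pseudocount of 0.1, a non-robust fit and voom, and 3 with a term for ultrasound 2 and 3. Without a filter on low values and with the replicate block 0 passed by limma; 4216 and 3249 of all genes then had an unadjusted p under 0.05. The authors' deposited table gives 8. Leaving out 1 library gave 0 to 8. Over all genes 864 became 437 with median-of-ratios factors, 0 without a filter, 0 with the block, 150 with the term, 2179 in the authors' deposited table, 1962 at an adjusted p of 0.1, and 0 to 5727 with 1 library left out. Control 2, control 3, ultrasound 2 and ultrasound 3 each gave 0, with 1962, 2154, 2058 and 1998 genes at an unadjusted p under 0.05. The 15 pathway genes became 0 without a filter, 0 with the block, 1 with the term, 28 in the authors' deposited table and 0 to 43 with 1 library left out. For these counts, the cause was not tested.

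Log2 changes that lost their call without a filter and with the block were Dusp2 -1.51, Dusp4 -1.88, Dusp5 -1.97 and Dusp10 -1.09, with limma adjusted p of 0.0592 for all 4 without a filter and 0.0850, 0.0862, 0.0853 and 0.0731 with the replicate block; with the term Dusp5 lost its call at -1.34, against -1.97. With 1 library left out Dusp1 ranged from -1.87 to -0.86, Dusp2 from -1.75 to -1.28, Dusp4 from -2.23 to -1.68, Dusp5 from -2.29 to -1.75, Dusp6 from -0.52 to -0.32, Dusp10 from -1.19 to -1.04, Spry1 from -1.31 to -0.88, Spry2 from 0.11 to 0.32 and Spred1 from -0.31 to 0.18. Calls were gained in the authors' deposited table by Dusp1 (-1.29), Dusp6 (-0.56) and Spry1 (-1.32), and by Spred2 (-0.42), which the main analysis did not test. Spry1 also passed in the non-robust fit (-1.04), in voom on recovered reads (-1.27) and in voom with at least 10 reads in every library (-1.27). Directions reversed for genes that had not passed: Spry2 with the term (-0.064), and Spred1 with median-of-ratios (-0.058) and upper-quartile factors (-0.051), a pseudocount of 0.1 (-0.0084), both voom fits (-0.026 and -0.026), without control 3 (-0.085), without ultrasound 1 (-0.31) and in the authors' deposited table (-0.0058). The cause was not tested.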

Other observations

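The 6 other family genes below the FPKM minimum had the following values. Spry4, a Sprouty gene known as an ERK target, had 0.309, 0.471 and 0.546 FPKM in the controls and 0.162, 0.0823 and 0.0379 FPKM in ultrasound 1, 2 and 3, on 113, 171 and 200 reads against 59, 32 and 15. Dusp8, a phosphatase of p38 and JNK, had 0.361, 0.229 and 0.428 FPKM in the controls and 0.109, 0.0923 and 0.0526 FPKM in ultrasound 1, 2 and 3, on 44 to 83 and 11 to 21 reads. Dusp9, an ERK phosphatase, had 0.257, 0.187 and 0.175 FPKM in the controls and 0.619, 0.262 and 0.229 FPKM in ultrasound 1, 2 and 3, on 17 to 60 reads. Dusp14 had 0.832, 1.395 and 0.771 FPKM in the controls and 0.782, 0.511 and 0.487 FPKM in ultrasound 1, 2 and 3. Dusp18 had 0.507, 0.377 and 0.495 FPKM in the controls and 0.444, 0.206 and 0.0853 FPKM in ultrasound 1, 2 and 3. Spred3 had 0.0953 to 0.219 FPKM in the controls and 0.124 to 0.278 in ultrasound libraries, which overlap. These genes were not tested in the main analysis. All had at least 10 reads in every library and so entered the voom fit with that filter, chosen after the data were seen. In it 1 of the other Sprouty and Spred genes passed, where 893 of all 12614 genes did. The authors' deposited table also gives 1, with 2179 of its 17744 genes at q under 0.05. For the other dual specificity phosphatases that voom fit called 3, against 2 in the main analysis.

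Rescaled to the joined GENCODE exons in place of the implied lengths, the control mean of Spred2 was 8.07 FPKM, above Spry1 at 6.75.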
